A study of Mus musculus with 54 samples.

Results

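The regions described here were closed at day 0 of a retinoic acid time course and open on each later day that was sampled. They were picked from the authors' ATAC-seq openness table, which gives 1 value per region at days 0, 2, 4, 10 and 20. A region was a member if its openness was 1 or more at days 2, 4, 10 and 20, and if the lowest of these values was at least 2 times the day-0 value after 0.1 had been added to each. On the autosomes 1698 of 170884 regions (0.994%) met the rule. All 5 values of a region entered the rule, so the openness of the members is given as a description and nothing in it was tested.

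The cells were R1 mouse embryonic stem cells, an established line, grown in a medium with 15% Knockout Serum Replacement and 1000 U/ml LIF, a cytokine that keeps them undifferentiated. They were aggregated by the hanging drop method for 48 h, and the embryoid bodies were kept in medium with, per the labels, 0.5 mM retinoic acid for up to 20 days. The labels tell the groups apart by the day of sampling, and no sample was kept without retinoic acid for the later days, so time in culture and retinoic acid cannot be told apart. The labels name 7, 6, 9, 4 and 6 ATAC libraries at days 0, 2, 4, 10 and 20, which the openness table pools into 1 column a day, and 22 RNA libraries (7, 3, 3, 5 and 4), which have a column each. The labels leave unsaid if the day-0 cells had been aggregated or had met retinoic acid, so these may differ from the later days too, and if replicate libraries were grown as separate cultures.

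Most of the genome is wrapped in nucleosomes and hard to reach. In ATAC-seq a transposase cuts and tags the DNA that it can reach, so promoters and enhancers bound by transcription factors give more signal than closed chromatin. Enhancers of lineages that stem cells have not entered are typically closed, and some open when a differentiation signal arrives. Retinoic acid is such a signal: it binds nuclear receptors that sit on DNA and, in embryoid bodies, directs cells towards neural fates. In these bulk samples, a region that is open in fewer cells and a region that is less open in each cell cannot be told apart. The sources used here hold no sequence or gene annotation in mm9, the build of the table, so the regions are named by position only, without genes, sequence motifs or printed sequence.

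Members went from the bottom of the table at day 0 to its upper part at day 2. Their median openness was 0.547 at day 0 (middle 50% of members 0.454 to 0.715) and 2.10 at day 2 (1.60 to 3.03). It was 2.45 at day 4 (1.84 to 3.36), 1.65 at day 10 (1.30 to 2.39) and 2.16 at day 20 (1.60 to 3.10). Day 10 thus had the lowest median of the later days. This order depends on the rule: with a floor of 2 the medians of days 2 and 10 were 3.35 and 3.41, without day 2 in the rule they were 1.44 and 1.91, and without day 20 the lowest median was that of day 20 (1.61, against 1.71 at day 10). Ranked within each day among all autosomal regions, the median member stood at percentiles 7.29, 79.8, 85.6, 67.4 and 80.3 over days 0, 2, 4, 10 and 20. The 5 columns share the same maximum (31.3) and nearly the same quartiles, which looks like normalization to a common distribution by the authors. If so, the values carry little beyond these ranks, and a general opening of the genome would show in neither.

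**Figure D1:**
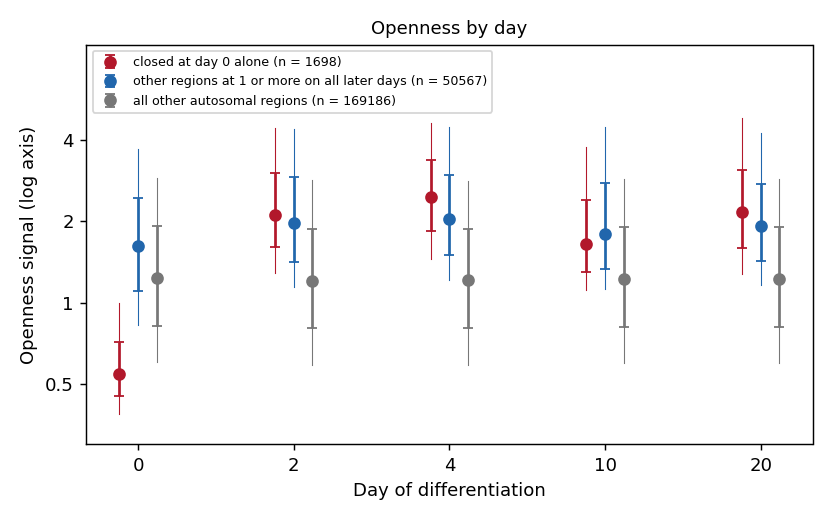
Openness signal (log axis) at each day of differentiation for the 1698 members (red), the 50567 other autosomal regions at 1 or more on all later days (blue) and all 169186 other autosomal regions (grey). Points are medians, capped bars the middle 50% of regions and thin lines the middle 80%; the red medians run 0.547, 2.10, 2.45, 1.65 and 2.16 while the grey ones stay between 1.21 and 1.24.

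The word closed holds for most members but not for all. At day 0, 662 members (39.0%) were below 0.5 and 169 (9.95%) were at 1 or more. The day-0 openness of 120 members (7.07%) was above the autosomal median of 1.23, so these were open at day 0 and more open later. Day-0 values ran from 0.149 to 4.71. The table's values come in steps: its 174059 regions hold 68836 different day-0 values, and 1301 members (76.6%) share their day-0 value exactly with another region, against 74.97% of all autosomal regions. The sources used here give no read depth behind a value.

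The ratio of the lowest later value to the day-0 value, each with 0.1 added, had a median of 2.27, and 75% of members were at or below 2.55. It reached 2.5 in 470 members, 3 in 177, 4 in 25 and 5 in 3, with a maximum of 5.75. The set thus sits close to its threshold. Just inside it were chr14:58257750-58257976 (ratio 2.00004), chr3:129384750-129385432 (2.00027) and chr15:73127048-73127317 (2.00071). Just outside were chr7:106455083-106455523 (1.99996), chr3:28633692-28634052 (1.99994) and chr3:37678985-37679789 (1.99993). The first of those inside stood at 0.518, 1.30, 1.14, 1.31 and 1.31 at days 0, 2, 4, 10 and 20, and the first of those outside at 0.572, 1.47, 1.56, 1.24 and 1.92, so the threshold parts regions that look alike.

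Regions closed on a single day were most frequent for day 0. With the same thresholds applied to each day in turn, 97 regions (0.0568%) were low at day 2 alone and 21 (0.0123%) at day 4 alone. For day 10 there were 640 (0.375%) and for day 20 there were 543 (0.318%). Exact 95% binomial bounds, which cover counting only, were 0.947% to 1.04% for day 0 and 0.346% to 0.405% for day 10. Day 0 has sampled days on 1 side only, as has day 20. The reverse pattern, at 1 or more at day 0 and at least 2-fold lower on every later day, was met by 16066 of the 170884 autosomal regions. These outnumbered the 1698 members. On the X chromosome, which the rule leaves out, 23 of 3107 regions (0.740%, exact 95% bounds 0.470% to 1.11%) had the members' pattern.

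The background for each comparison with day 0 is the share of all autosomal regions that were 2-fold higher and at 1 or more on the later day. Over days 2, 4, 10 and 20 it was 13.7%, 16.1%, 16.4% and 16.7%, and all members are among them because the rule asks for it. Between later days the rule sets only a floor. From day 2 to day 4, 51 members rose 2-fold and 4 fell 2-fold (3.0% and 0.236%), against 4.23% and 2.34% of all autosomal regions. From day 4 to day 10, 37 rose and 375 fell (2.18% and 22.1%), against 10.7% and 10.8%. From day 10 to day 20, 271 rose and 41 fell (15.96% and 2.41%), against 9.8% and 9.64%. The other regions at 1 or more on all later days, which share the members' floor, rose or fell 2-fold in 1.37% and 0.526% of cases from day 2 to day 4, in 3.83% and 8.74% from day 4 to day 10, and in 9.2% and 5.81% from day 10 to day 20. Falls to day 10 and rises to day 20 were thus more frequent among members than in these, as a description of values that the rule used. A member cannot fall below 1 on a later day, which limits how many could fall. The median log2 changes of members were 0.14, -0.42 and 0.23 over these 3 steps, and those of all autosomal regions -0.02, 0.03 and 0.01.

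The highest later day was day 4 for 574 members (33.8%), day 20 for 466 (27.4%), day 2 for 376 (22.1%) and day 10 for 282 (16.6%). The lowest later day was day 10 for 874 (51.5%), day 2 for 379 (22.3%), day 20 for 294 (17.3%) and day 4 for 151 (8.89%). The closest set to put beside them is the 50567 other autosomal regions at 1 or more on all 4 later days, whatever their day-0 value. In these, day 4 was highest in 19.4% and day 10 in 28.1%, and day 10 was lowest in 31.8% and day 20 in 33.6%. The rule used all of these values, so the shares are descriptions. Which day was highest most often depends on the rule: day 20 came before day 4 with a floor of 2 on the later days (32.7% and 25.9% of 324 regions), with 0.5 added to openness in place of 0.1 (29.9% and 29.2%) and without day 2 in the rule (31.2% and 26.1%). A dip, with day 10 below both day 4 and day 20, was seen in 1012 members (59.6%) and in 37.4% of the comparison regions. Each value pools the libraries of a day, 4 at day 10, so the spread between libraries is not known for any of these shares.

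**Figure D2:**
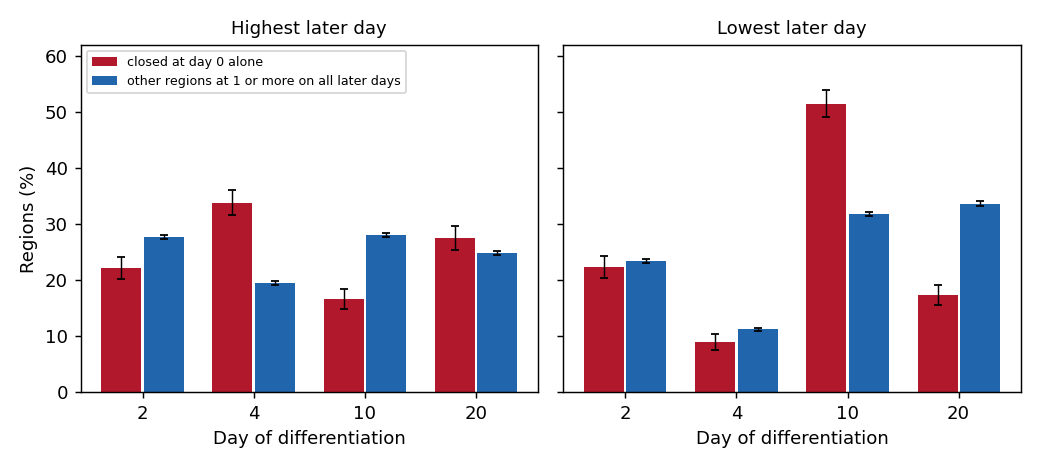
Share of regions (%) whose highest (left) or lowest (right) later openness fell on days 2, 4, 10 or 20, for members (red) and for other regions at 1 or more on all later days (blue). Error bars are exact 95% binomial intervals for counting only; day 10 is the lowest day of 51.5% of members and 31.8% of the others.

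Of the 24 possible orders of the 4 later days, the most frequent put day 4 first, then days 2, 20 and 10, in 243 members (14.3%). The next were days 20, 4, 2 and 10 (192 members) and days 2, 4, 20 and 10 (186). A steady rise from day 2 to day 20 was found in 66 members (3.89%) and a steady fall in 82 (4.83%). The highest later value was under 1.5 times the lowest in 416 members (24.5%) and at least 2 times in 703 (41.4%), against 21.3% and 35.6% of the comparison regions. The median of this spread was 1.83 times in members and 1.78 times in the comparison regions, so members were about as uneven as these. Members highest at day 2 had medians of 0.532, 2.88, 2.32, 1.49 and 1.74 over the 5 days, and those highest at day 4 had 0.526, 2.10, 2.96, 1.47 and 1.92. Members highest at day 10 had 0.605, 1.81, 1.95, 3.05 and 2.04, and those highest at day 20 had 0.570, 1.81, 2.25, 1.62 and 3.27. Day-0 openness differed little between these groups.

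Across members, openness at days 2 and 4 went together (Spearman's rho 0.74, n = 1698 regions), more closely than at days 4 and 10 (0.25) or 2 and 10 (0.26). Days 10 and 20 stood at 0.41, and days 4 and 20 at 0.48. In the comparison regions the same 3 pairs of days, 2 and 4, 4 and 10, and 2 and 10, stood at 0.77, 0.42 and 0.30, so this pattern was not limited to members. These coefficients describe regions that share libraries, are shaped by the rule and have no p. The rule caps day-0 openness by the lowest later day, which was day 10 for most members, and rho between days 0 and 10 was 0.66.

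The member with the largest ratio (5.75) was chr4:45203210-45203581, 372 bases long, at 0.196, 1.60, 2.504, 1.63 and 2.88 over days 0, 2, 4, 10 and 20. Next was chr12:78130905-78131090 (ratio 5.29), which also stood at 0.196 at day 0 and then at 2.13, 1.78, 2.10 and 1.47 at the later days. Another member lay 465 bases from it. The third, chr3:144306092-144306957 (5.26), went from 0.602 to 12.5, 12.1, 3.59 and 6.02 over the later days, and had the highest openness of the 12 at days 2 and 4. Its day-2 value was close to the highest of any member at that day, 12.6.

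Of the others, chr1:92124479-92125763 was the longest of the 12 with 1285 bases and stood at 0.243, 2.28, 2.91, 1.61 and 1.92. The 945-base region chr13:44087005-44087949 stood at 0.208, 3.26, 3.27, 1.38 and 2.42, a clear dip at day 10. A late increase was seen at chr1:153929547-153929811, with 0.271, 1.93, 2.35, 1.51 and 5.27. Likewise chr3:65646856-65647483 was highest at day 20, with 0.244, 1.61, 2.59, 1.40 and 3.49. The region chr7:119313624-119314492 gained at each step, from 0.498 through 2.65, 3.14 and 3.43 to 4.41. By contrast chr13:56013727-56013879 had the lowest day-0 value of all members, 0.149, and was highest at day 10 (1.04, 1.71, 3.50 and 2.22 over the later days). The remaining 3 of the 12, at chr1:127957783-127957958, chr5:106542416-106542667 and chr18:60765660-60766526, had ratios of 4.63, 4.52 and 4.41. Of these 12 regions, 5 were highest at day 20 and 4 at day 4; day 2 was highest in 2 and day 10 in 1.

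The members most open after day 0 were of another kind. These 6 were long (1189 to 1634 bases), stood at 2.79 to 4.71 at day 0, above the autosomal median of 1.23, and varied little between later days. The first, chr14:55304649-55306282, stood at 3.93, 9.12, 11.0, 13.1 and 10.7. Next, chr7:148513122-148514672 stood at 2.79, 9.46, 10.2, 12.3 and 10.1, the lowest day-0 value and the largest ratio (3.31) of the 6. The evenest, chr16:13818504-13819999, went from 4.71 to 10.2, 10.4, 10.6 and 10.4, a spread of 1.03 times after day 0. Those at chr19:7415549-7416737, chr7:13622806-13624201 and chr4:154596487-154597780 passed the rule with ratios of 2.02, 2.21 and 2.06. By their day-0 values these 6 were open before day 2 and became more open, with ratios of 2.02 to 3.31 for the lowest later day.

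**Figure D3:**
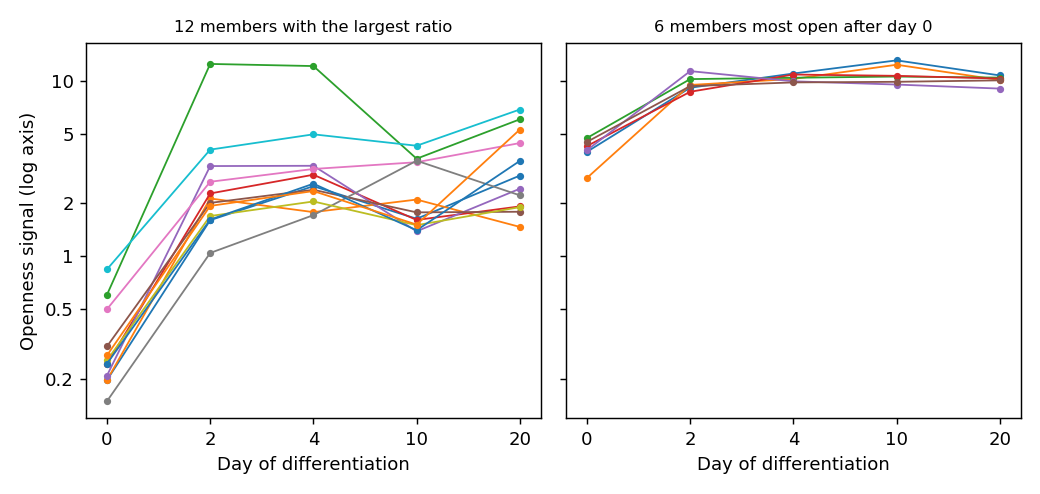
Openness signal (log axis) by day of differentiation, 1 line per region, for the 12 members with the largest ratio of the lowest later day to day 0 (left) and the 6 members with the highest mean openness after day 0 (right). On the left the lines start between 0.149 and 0.840 and lie between 1.04 and 12.5 at day 2 and between 1.47 and 6.85 at day 20. On the right they start between 2.79 and 4.71 and stay between 8.65 and 13.1.

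Some members were led by a single later day. At chr6:40379564-40380145 the day-20 value, 8.48, was 3.48 times the next highest, after 0.560, 2.30, 2.37 and 1.67 at days 0, 2, 4 and 10. At chr8:129060207-129061619 the day-10 value, 4.44, was 3.06 times the next, with 0.451 at day 0 and 1.04, 1.18 and 1.38 at days 2, 4 and 20. The member chr19:18972808-18973013 was led by day 4, at 3.94 against 0.416, 1.16, 1.44 and 1.04 on the other days. For day 2 the largest lead was smaller, 2.13 times, at chr13:97698501-97699007, which stood at 0.807, 4.85, 2.22, 2.19 and 1.79. These regions were picked for their lead, and each value is a single pooled number.

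The median width of members was 509.5 bases (middle 50% 277 to 833), against 420 (247 to 736) for all other autosomal regions and 416 (220 to 893) for the other regions at 1 or more on all later days. They were less often 1000 bases or longer than the latter (15.96% against 21.4%), and their widths spanned a narrower range. Regions low at day 10 alone had a median of 396.5 bases, those low at day 20 alone 792 and those open at day 0 alone 527. Without day 2 in the rule the members' median was 407 bases, below that of the other autosomal regions. Width was not used by the rule. Among members, Spearman's rho of width with openness was 0.25 and 0.22 at days 2 and 4, and 0.04 and 0.03 at days 0 and 10. These are descriptions without a test. Among members the narrowest 25% (129 to 277 bases) and the widest (833 to 2696) had median ratios of 2.28 and 2.26, and median day-0 values of 0.591 and 0.565. The largest ratios were somewhat higher in the narrowest 25%, where 10% of members were above 3.18, against 2.94 in the widest.

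Members were found on all 19 autosomes. Their share of a chromosome's regions ran from 0.656% on chromosome 2 (89 of 13577, exact 95% bounds 0.527% to 0.806%) to 1.33% on chromosome 19 (53 of 3992, 0.996% to 1.73%). Chromosomes 8 and 7 followed with 1.219% and 1.202%. Chromosome 2 had the most regions in the table but fewer members than chromosomes 1, 3, 5, 7, 8, 9, 13, 14 and 4. Among chromosomes, the share of members highest at day 4 was lowest on chromosome 8 (24.5%) and highest on chromosome 11 (47.7% of 86), and that highest at day 20 was highest on chromosome 16 (41.1% of 56). With 53 to 139 members a chromosome, these shares have wide counting errors.

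Most members stood alone. Another member lay within 10 kb of 123 (7.24%, exact 95% bounds 6.06% to 8.58%), within 50 kb of 384 (22.6%) and within 100 kb of 572 (33.7%). With any region of the table as neighbour, 82.2% of autosomal regions had one within 10 kb. The share within 10 kb depends on how many regions a set holds, and was 4.84% for the 640 regions low at day 10 alone and 22.9% for the 16066 regions open at day 0 alone. Members within 10 kb of the next formed 55 pairs, 3 runs of 3 and 1 run of 4. That run lay at chr3:51719750-51739645, a span of 19896 bases with 6 regions of which 4 were members. Its first member, chr3:51719750-51720653, stood at 0.485, 4.16, 3.92, 2.37 and 1.61 over the 5 days. The second, 340 bases on at chr3:51720994-51721177, stood at 0.607, 2.36, 2.17, 1.37 and 1.69. The third, chr3:51728339-51729038, fell from 3.54 at day 2 to 2.37, 1.02 and 1.01, and the fourth, chr3:51738715-51739645, was even at 2.23, 2.42, 1.86 and 2.21, from day-0 values of 0.407 and 0.762. Of the run's members 3 were highest at day 2 and the last at day 4. Over all 64 pairs of adjacent members in such runs, 24 (37.5%, exact 95% bounds 25.7% to 50.5%) had the same highest later day. The members' own shares of highest days would give 26.6%, which lies within these bounds.

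Regions near a member that were not members themselves also tended to be less open at day 0 than later, though by less. The measure is the mean of log2(openness + 0.1) over the 4 later days minus that at day 0, with a median of 1.66 in members and 0.16 in the 169186 other autosomal regions. In the 321 other regions within 1 kb of a member its median was 0.77, and it was above 0 in 89.1% of them. It fell with distance, to 0.62 at 1 to 5 kb (1540 regions), 0.50 at 5 to 20 kb (5213), 0.41 at 20 to 100 kb (21027) and 0.10 beyond 100 kb (141085, above 0 in 54.5%). The median openness within 1 kb was 0.868 at day 0 and 1.33, 1.54, 1.47 and 1.53 on the later days, whereas beyond 100 kb it was 1.27, 1.18, 1.17, 1.19 and 1.19. Among those at 1 or more on all later days the medians were 0.82 within 1 kb and 0.35 beyond 100 kb. Members are left out of these distance groups, so regions that passed the rule near another member do not count. How this shifts the values was not tested. Regions next to each other share libraries, and no test was made.

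**Figure D4:**
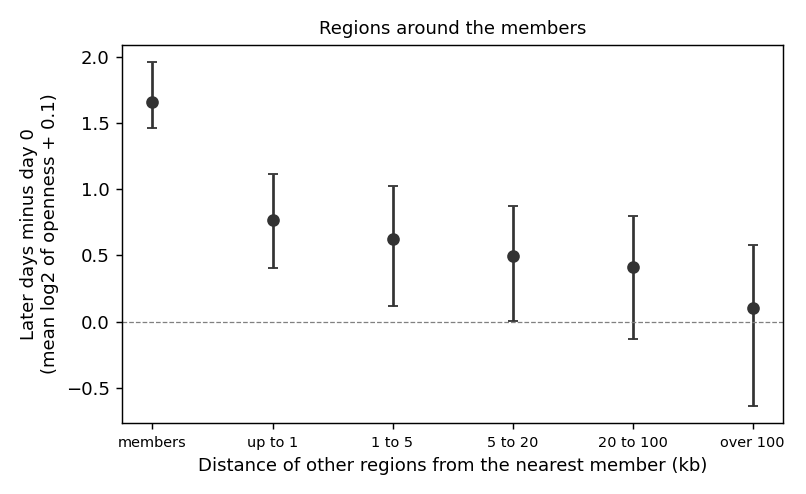
Mean log2(openness + 0.1) over the later days minus that at day 0, for members and for all other autosomal regions by distance (kb) from the nearest member; points are medians and bars the middle 50% of regions. The median falls from 1.66 in members to 0.77 within 1 kb and 0.10 beyond 100 kb.

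The highest later day of nearby regions was set beside that of the member. Of the 686 other regions within 5 kb of a member highest at day 4, 22.4% were themselves highest at day 4 among the later days, against 18.6% of those near members with another highest day. For members highest at day 2 the shares were 35.9% and 28.6%, for day 10 they were 31.5% and 22.6%, and for day 20 they were 28.4% and 25.1%. Each share was thus somewhat higher beside a member with the same highest day, as a description without a test. Of the regions more than 100 kb from any member, 32.6%, 13.5%, 27.6% and 26.4% were highest at days 2, 4, 10 and 20.

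RNA gives an independent view of which genes had the same shape, although no region could be tied to a gene here. The deposited FPKM, a level per transcript length and library size, were tested as log2(FPKM + 1) with limma, later days (the mean of the 4 day means) against day 0, over 14982 genes and 22 libraries. At a Benjamini-Hochberg adjusted p under 0.05, 8413 genes (56.2%) were higher and 5329 (35.6%) lower later. Of all calls 61.2% were higher, but 49.5% with quantile-normalized values and 68.9% once every library had been given the same sum, and the median log2 change of all genes was 0.30, -0.01 and 0.47 in these 3 scalings. The p-values rest on library-to-library spread alone, which could be technical. The members' rule carried over to genes (called higher, lowest later mean + 1 FPKM at least 2 times the day-0 mean + 1, and lowest later mean at 1 FPKM or more) was met by 1053 genes (7.03%), and by 573 after quantile normalization. As with regions, low at 1 day alone was most frequent at day 0: by means only, 80, 59, 28 and 49 genes were low at days 2, 4, 10 or 20 alone. With the same thresholds reversed, 631 genes were high at day 0 alone in the values as deposited, fewer than the 1053 low there. The reverse count was not made after quantile normalization, where 573 genes were low at day 0 alone. Among regions the reverse pattern was the more frequent. The openness columns look normalized to a common distribution and the FPKM were used as deposited, so these 2 directions cannot be compared. The 1053 genes had their lowest later day at day 2 in 631 cases (59.9%) and at day 10 in 66 (6.27%). Of them 269 (25.5%) were highest at day 4 and 391 (37.1%) at day 20. In the 10159 other tested genes with later means at 1 FPKM or more, day 2 was lowest in 32.1% and day 10 in 17.4%, and day 4 was highest in 23.3% and day 20 in 27.9%.

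Genes low at day 0 alone included several that serve retinoic acid or the body axis. Hoxb8, a Hox gene of the trunk, stood at a lowest, median and highest of 0.18, 0.28 and 0.55 FPKM in the 7 day-0 libraries. Over days 2, 4, 10 and 20 it ranged over 103 to 107, 320 to 330, 249 to 327 and 67.3 to 85.3 FPKM, a log2 change of 6.98 ± 0.06 (SE) with limma (adjusted p = 6.68e-28). Prss12, which encodes the protease neurotrypsin, stood at 0.06, 0.17 and 0.27 FPKM at day 0 and rose through 35.0 to 35.8, 42.3 to 45.0 and 51.6 to 57.4 to 74.9 to 83.1 FPKM at days 2, 4, 10 and 20. Its log2 change was 5.49 ± 0.04 (limma adjusted p = 7.08e-29). In neither gene did a later library overlap a day-0 library, which the rule for naming asked for. Of all genes tested, 22.5% had no such overlap with the later libraries higher. The other 14 genes named for the largest rise of their lowest later day were Cyp26a1, Hoxb6, Nr2f1, Rbp4, Apoa1, S100g, Nsg2, Hoxa5, Hoxc4, Tshz1, Rgma, Zfp503, Nepn and Fam181b, with log2 changes of 4.30 to 6.22. Cyp26a1 breaks down retinoic acid, Rbp4 carries retinol, Nr2f1 is a COUP-TF nuclear receptor and Apoa1 is an apolipoprotein made by endoderm derivatives. S100g, a calcium-binding protein gene, differed within day 0: replicates 1 to 3 held 0.39 to 1.82 FPKM, whereas replicates 4 to 7 held 5.04 to 7.12, against 84.6 or more in each later library. Its log2 change was 6.49 with the first set of day-0 libraries alone and 4.79 with the second.

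**Figure D5:**
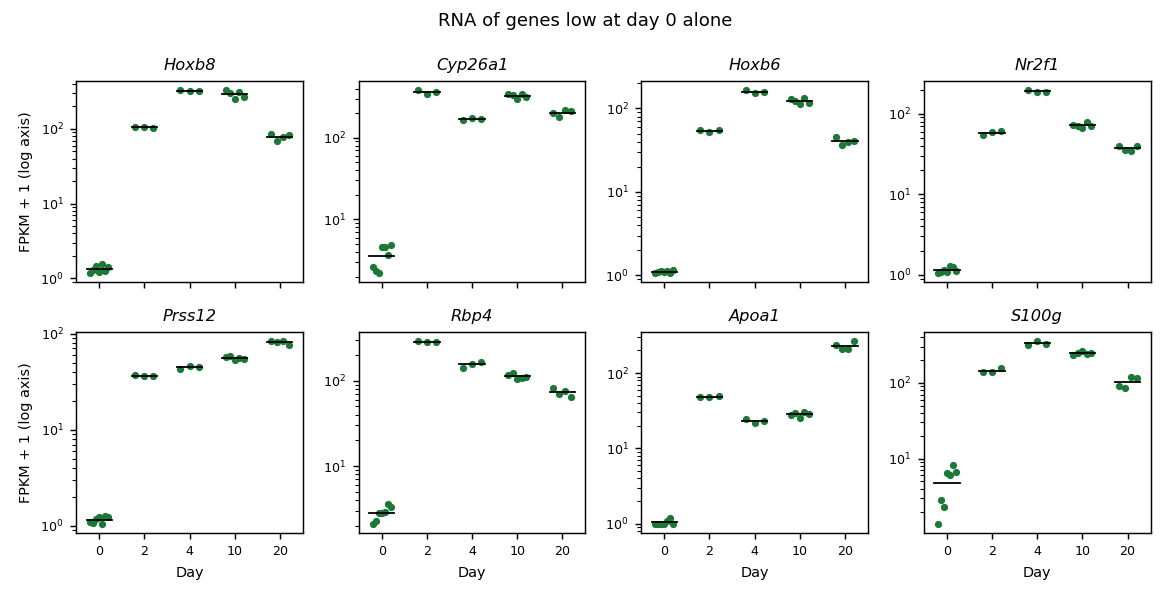
FPKM + 1 (log axis) in each RNA library by day for 8 genes low at day 0 alone; points are libraries (7, 3, 3, 5 and 4 by day) and bars day means. In each panel the day-0 points lie below all later ones; the day-0 points of Cyp26a1 and S100g fall into a lower set (replicates 1 to 3) and a higher set (replicates 4 to 7).

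Gene lists of DNA-binding factors and chromatin regulators were read in the same contrast, with the counts, which are of the genes tested, to be set against 56.2% of all genes higher and 35.6% lower. Hox genes of groups 1 to 5 rose in 15 of 15 cases (median log2 change 3.92) and those of groups 6 to 9 in all 11 tested of the 12 in the table (3.30), and 13 and 8 of them were low at day 0 alone. The TALE homeodomain cofactors of Hox proteins rose in 9 of 11 cases and fell in 2 (median 2.17), or 8 and 3 after quantile normalization. They were led by Meis1 (3.98 ± 0.05) and Meis3 (3.86 ± 0.07). Retinoic acid signalling genes rose in 20 of 23 cases and fell in 3 (1.87), or 19 and 4 after quantile normalization. Neural progenitor factors rose in 15 of 19 and fell in 3 (2.33), led by Olig2 (4.87 ± 0.05) and Nkx6-1 (4.54 ± 0.05). GATA, FOXA and HNF factors rose in 12 of 13 and fell in 1 (1.55), or 10 and 2 after quantile normalization, led by Hnf4a (3.02 ± 0.07) and Foxa2 (2.59 ± 0.19). Foxa2 held 0.79 to 1.31 FPKM in day-0 replicates 1 to 3 and 3.6 to 4.35 in replicates 4 to 7, and its log2 change was 3.37 and 2.01 with each set alone. Sox17 of the same list was split likewise, at 5.79 to 6.47 and 23.1 to 26.3 FPKM. Beside these, 6 endoderm markers, 4 of which are in that list, summed to 22.1 to 65.5 FPKM at day 0 and 210 to 244 at day 20, and their part in the result was not tested. Factors of maturing neural cells rose in 10 of 11 and fell in 0 (2.21), or 9 and 1 after quantile normalization, led by Sox9 (4.32 ± 0.04) and Rfx4 (4.24 ± 0.04). Beside both neural lists, 6 markers of astrocytes or radial glia summed to 6.82 to 9.46 FPKM at day 0 and 3262 to 3497 at day 20, with 1 of the 6 under 0.1 FPKM at day 0 and 0 at day 20. Those of the oligodendrocyte lineage went from 7.44 to 15.6 at day 0 to 1603 to 2490 at day 20. Of these markers 1 (Sox10) is also in the list of maturing neural cells. Those of neurons fell from 107 to 148 at day 0 to 19.1 to 19.6 at day 2. They stood at 1400 to 1426 at day 4 and 258 to 260 at day 20, so their sum was lowest at day 2. Those of epithelium went from 122 to 141 at day 0 to 1535 to 1711 at day 20. The part of these cells in the list counts was not tested. AP-1 genes rose in 5 of 8 and fell in 2 (0.49), a share near that of all genes, or 4 and 2 after quantile normalization. Jun stood at 2.11 ± 0.07, Fos at 1.78 ± 0.10 and Junb at -0.81 ± 0.10. With day-0 replicates 1 to 3 or 4 to 7 alone, the change of Fos was 2.13 and 1.53 and that of Jun 2.36 and 1.93. Junb held 35.0 to 36.5 and 53.9 to 60.2 FPKM in these 2 sets. Its mean was 47.2 FPKM at day 0 and 6.88, 7.24, 55.7 and 141 at days 2, 4, 10 and 20. Against day 0, Junb was thus lower at days 2 and 4, not called at day 10 and higher at day 20 (log2 change 1.59). Fos was lower at day 2 than at day 0 (means of 1.08 and 4.43 FPKM), did not pass the test at day 4 (3.44) and rose at days 10 and 20 (138 and 86.0). The list of COUP-TF and other nuclear receptors rose in 4 of 9 cases and fell in 4, or 2 and 6 after quantile normalization. Its largest changes went both ways. The COUP-TF genes Nr2f1 and Nr2f2 rose (6.00 and 4.85), whereas Esrrb and Nr0b1, which are also in the pluripotency list, fell (-5.54 and -4.88). TEAD and YAP genes rose in 2 of 8 and fell in 6 (-1.08), or 0 and 6 after quantile normalization. CTCF and cohesin genes fell in 7 of 7 (-0.55), 6 of 7 with libraries rescaled to 1 sum, among them Rad21 (-1.05 ± 0.03) and Smc3 (-1.05 ± 0.04). Repressors of chromatin rose in 11 of 27 and fell in 16 (-0.75), or 8 and 16 after quantile normalization, with Dnmt3l at -6.49 ± 0.12. The change of Dnmt3l was -6.93 with day-0 replicates 1 to 3 alone and -6.17 with replicates 4 to 7 alone. The 21 pluripotency genes all fell (-4.72). The 6 stem cell markers, all of which are in that list, summed to 2247 to 2636 FPKM at day 0 and at most 174 in any later library. At day 20 they summed to 92.2 to 99.5 FPKM. Pou5f1, Nanog, Tdgf1 and Utf1 had day-20 means of 0.195, 0.14, 0.755 and 0.1375 FPKM, so nearly all of that sum came from Sox2 and Zfp42. Sox2 is also in the neural progenitor list. The day-0 libraries thus carry the markers that their label names. A rise in the contrast did not mean low at day 0 alone, which held for 7.03% of all genes tested. Outside the Hox lists it held for 10 of 23 retinoic acid genes, 9 of 19 neural progenitor factors and 5 of 11 TALE cofactors. It held for 5 of 13 GATA, FOXA and HNF factors, 2 of 11 maturing neural factors and 2 of 9 nuclear receptors. Repressors of chromatin held 3 of 27, and the AP-1, TEAD, CTCF and pluripotency lists 0.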

How the data were processed

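Per the file headers, the authors deposited an ATAC openness signal with 1 column a day; how libraries were pooled into it is not stated in the labels. They also deposited 1 RNA table, whose unit was taken as FPKM from its values (library sums 472122 to 678222). Per the submitters' processing notes, RSEM (no version) and mm9 were used. For trimming, gene models and peak calling, the labels state nothing. Positions are those of the authors' BED file, counted from 1.

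The members and lists were chosen with earlier results of these data known. Openness has no replicates and was described, with exact binomial bounds (scipy 1.17.1) that cover counting error only. RNA differences came from limma 3.58.1 (R 4.3.3) on log2(FPKM + 1): group means over 22 libraries, empirical Bayes trend, genes reaching 1 FPKM in 3 or more libraries, 2-sided, Benjamini-Hochberg threshold 0.05. On simulated data with 14982 genes, 200 of them changed, this comparison recovered 90% of 1.5-fold, 100% of 2-fold and 100% of 3-fold increases. Read depth is unknown for both tables.

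Named regions were the 12 members with the largest ratio, the 6 most open later, those led most by 1 day, those nearest the threshold and the longest run. Named genes were the 16 with the largest rise of their lowest later day among genes low at day 0 alone whose libraries did not overlap, and called list members with the largest changes, of which the text gives a part.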

Additional observations from a re-analysis of the deposited data

Results flagged for a closer look

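Among the genes named by the rule, 2 of 111 day groups held a library that stood apart from the rest, where about 1 in 20 is flagged by chance. Rgma stood at 109.39 FPKM in day-20 replicate 1, and the nearest of the other 3 day-20 libraries was at 77.1. Smc3 stood at 74.04 FPKM in day-0 replicate 4, below the other 6 day-0 libraries, of which the nearest was at 80.1.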

How the results depend on the processing

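Region results were recomputed under 12 other forms of the rule. The number of members was 384 with 0.5 added to openness, 7206 and 177 with a fold of 1.5 and 3, and 324 with a floor of 2. Leaving days 2, 10 or 20 out of the rule gave 3243, 6880 and 2854 members. The other 5 forms gave 1712 to 2291. The share highest at day 4 was 29.2% with an offset of 0.5, 30.8% with a fold of 1.5, 25.9% with a floor of 2, and 26.1%, 29.5%, 37.3% and 36.3% without days 2, 4, 10 or 20. Day 20 led in place of day 4 with an offset of 0.5 (29.9%), with a floor of 2 (32.7%) and without day 2 (31.2%). The day-0 median was 0.572 with an offset of 0.01, 0.733 and 0.429 with a fold of 1.5 and 3, and 0.485 and 1.02 with a floor of 0.5 and 2. It was 0.581, 0.632 and 0.562 without days 2, 10 or 20. The median width was 554 bases with an offset of 0.5, 456 with a fold of 3, 690 with a floor of 2, and 407, 583 and 581 without days 2, 10 or 20, so members were narrower than the autosomal median when day 2 was left out. Another member lay within 10 kb of 9.65% and 2.08% of members with an offset of 0.01 and 0.5, 20.4% and 1.13% with a fold of 1.5 and 3, and 8.95% and 3.09% with a floor of 0.5 and 2. Without days 2, 10 or 20 it was 11.1%, 23.7% and 9.99%. The cause was not tested, beyond the rule admitting more or fewer regions.

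For RNA, genes low at day 0 alone numbered 573 after quantile normalization and 1018 to 1167 under the other planned settings. Without 1 library at a time they numbered 1041 to 1084, with 8336 to 8405 genes called higher and 5262 to 5328 lower. With the replicate number as a block, on libraries 1 to 3 of each day, 8343 genes were higher, 5029 lower and 1163 low at day 0 alone, against 8328, 5023 and 1163 without the block. Same-numbered libraries deviated together in 1 of 30 pairs (correlation over 0.1), and 6 of 15 libraries correlated best with their own number, so they were not treated as pairs. All 37 named genes that were followed kept their direction and call in all 1110 refits (highest limma adjusted p = 7.75e-09). They had been picked for large changes in these same libraries, so this outcome was largely set by the choice. Genes near members and motifs, planned for an annotation and genome of mm9, were not run. Unknown depth and pooled openness columns limit all region values.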
